A study of Mus musculus with 6 samples.

Results

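The choroid plexus epithelium genes are 10 mouse genes chosen by name, *Ttr*, *Enpp2*, *Igfbp2*, *Folr1*, *Kl*, *Prlr*, *Aqp1*, *Slc4a5*, *Clic6* and *Otx2*, out of 31053 genes in the count table, and all 10 had enough counts to be tested. They were followed across bulk RNA sequencing libraries of the cerebellum from 2 WT mice and 3 KIKO mice. KIKO (knock-in knock-out) mice are a model of Friedreich's ataxia that carries a knock-in allele beside a knock-out allele, and the WT mice were C57BL/6 littermates. The methods of the study describe CD45+/CD11b+ cells taken by magnetic sorting from the cerebellum of 6-mo-old mice, whereas the sample labels name the cerebellum and the genotype, with no sorting, age, sex or treatment. No source ties the libraries to litters or preparation days, so the p-values measure the spread between these libraries. WT replicate 3 was not analysed here.

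The choroid plexus is a folded epithelium that floats in the brain ventricles and secretes the cerebrospinal fluid, and the part in the fourth ventricle lies under the cerebellum. Its cells pump ions and bicarbonate, let water follow, carry thyroid hormone, retinol and folate from blood to fluid, and release proteins such as transthyretin. They carry neither CD45 nor CD11b, the surface proteins of leukocytes and of myeloid cells. Some genes of the list are also known from other brain cells, *Enpp2* from oligodendrocytes and *Igfbp2* from astrocytes and meninges.

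The total depth was 1044760 and 1351339 counts for WT replicates 1 and 2, and 1281661, 1241997 and 1013107 counts for KIKO replicates 1, 2 and 3. Levels are given as normalized CPM, counts brought to a common library size with the TMM method of edgeR, and 3 counts, the smallest signal considered, corresponded to 2.28 to 3.04 normalized CPM. This floor covers counting error only.

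KIKO replicate 2 stood apart from the other libraries. As a description across genes, which are not independent of each other, Pearson's r of its log2 levels was 0.656 to 0.731 against each other library, and 0.877 to 0.925 between any 2 of the remaining 4. It had no count for 143 of the 8369 genes with at least 10 counts in each other library, whereas the same measure gave 4 genes for WT replicate 1 and 0 genes for each remaining library. The fold changes of the members and the counts of the choroid plexus lists are therefore also given without it.

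Choroid plexus transcripts were abundant in every library. The 10 genes made up 1.25% and 1.38% of all counts in the WT libraries and 0.946%, 1.63% and 0.778% in KIKO replicates 1, 2 and 3. Most of this was *Ttr*, which ranked between position 3 and position 6 by counts in each library. Scaled by exonic length, mean *Ttr* in WT was 9276 normalized CPM per kilobase, *Enpp2* followed with 384.1, and the other members lay between 3.53 for *Prlr* and 29.8 for *Igfbp2*. The length scale assumes reads along the whole transcript, while the library service named in the methods may read the 3′ end only, so the order among the members of similar level is uncertain.

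**Figure D1:**
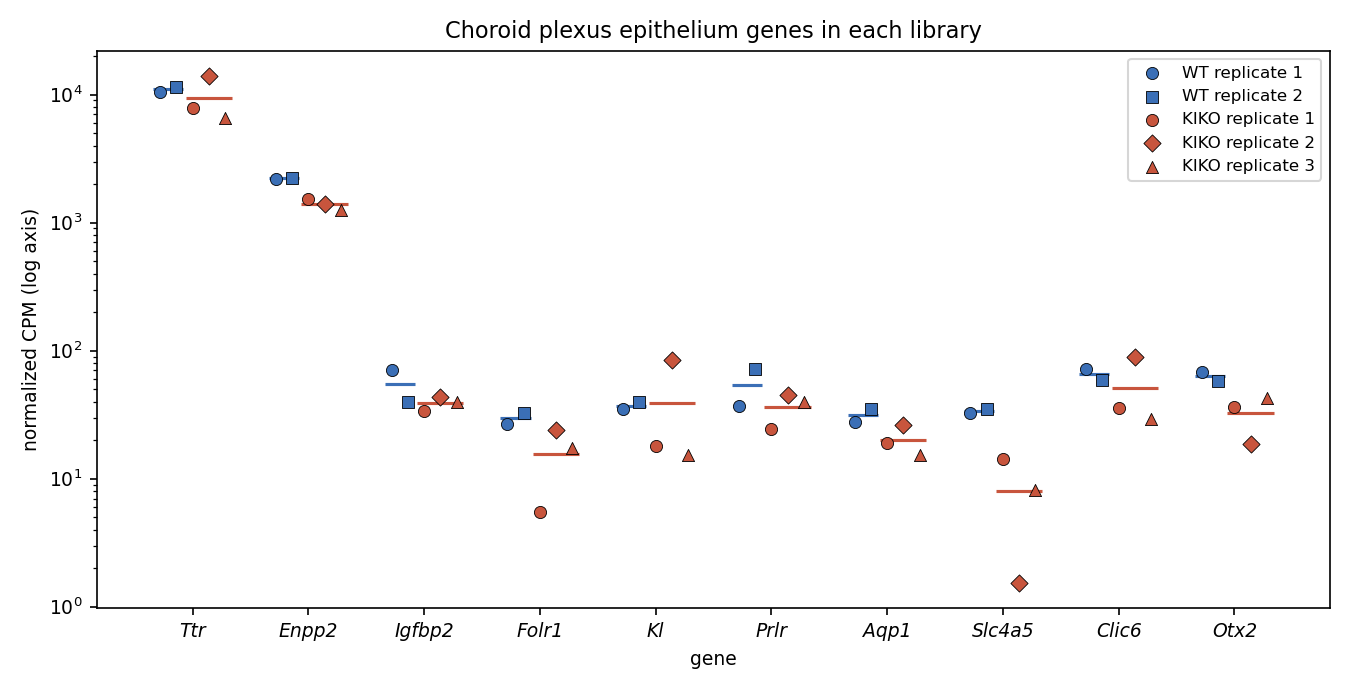
Normalized CPM (log axis) of the 10 choroid plexus genes, with one point per library, circles and squares for WT (blue), circles, diamonds and triangles for KIKO (red), and horizontal lines for group means. *Ttr* lies between 6550.3 and 13953, *Enpp2* between 1246 and 2240, and the 8 other genes below 100, with KIKO replicate 2 (diamonds) highest for *Ttr*, *Kl* and *Clic6* and lowest for *Slc4a5* and *Otx2*.

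The comparison of KIKO with WT asked whether these genes differ between the genotypes. Of the 10 genes, 1 passed the thresholds that the study applied, *Slc4a5*, which was lower in KIKO. These ask for more than 0.75 log2 units in either direction together with p under 0.05 before adjustment, here from the quasi-likelihood test of edgeR. In this comparison 1.2% of the 10889 genes tested passed, 0.487% in the lower direction. None of the tested genes had an adjusted p under 0.05 (0 of 10889, against 131 below 0.05 before adjustment in edgeR and 136, or 1.25%, in DESeq2). The fitted fold change was below 0 for 9 of the 10 genes, with a median of −0.61 on the log2 scale, compared with 48.1% of all tested genes and a median of 0.022. The members were chosen with earlier results of these data known, and genes of the same tissue are not independent of each other. This count, and the later counts of members set beside all genes, are therefore a description. In bulk samples, fewer choroid plexus cells in the sample, for any reason, and less RNA per cell cannot be told apart. How much choroid plexus was kept with each cerebellum, or passed any sorting, is not given in the sources used here.

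Among the transport genes, *Slc4a5* (chromosome 6, 83219828 to 83304945) encodes a sodium bicarbonate cotransporter of the fluid-facing membrane. It had 32.9 and 34.9 normalized CPM in the WT libraries and 14.2, 1.55 and 8.12 in KIKO replicates 1, 2 and 3. The KIKO libraries were all below both WT libraries, and the lowest value rested on 2 counts. The log2 fold change was −2.08 (standard error 0.78), past the thresholds but with an adjusted p = 1 in edgeR's test. Over the pooled counts, 28 in KIKO and 79 in WT, the ratio was 0.232, with an exact 95% interval of 0.145 to 0.361 that covers counting error only. Without KIKO replicate 2 it still passed, at a log2 fold change of −1.58, and it did not pass without KIKO replicate 3 (−2.09), WT replicate 1 (−2.12) or WT replicate 2 (−2.04), where the fold change was of the same size.

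*Aqp1* (chromosome 6, 55336432 to 55348555), the water channel of the same membrane, had 27.9 and 34.9 normalized CPM in WT and 18.9, 26.3 and 15.2 in KIKO libraries. Here too the groups did not overlap, but the log2 fold change of −0.63 (standard error 0.50), or −0.88 without KIKO replicate 2, did not pass. *Clic6* (chromosome 16, 92485736 to 92541243), of the chloride intracellular channel family, had 71.7 and 59.2 in WT and 35.5, 88.9 and 29.4 in KIKO. KIKO replicate 2 was above both WT libraries and the other KIKO libraries below them, which gave a log2 fold change of −0.35 (standard error 0.54), and of −1.0 without KIKO replicate 2.

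Of the secreted proteins, *Ttr* (chromosome 18) encodes transthyretin, the carrier of thyroxine and of the retinol-binding protein. It had 10476 and 11526 normalized CPM in WT and 7836, 13953 and 6550.3 in KIKO libraries. As for *Clic6*, KIKO replicate 2 was the highest library and the other KIKO libraries were the lowest, with a log2 fold change of −0.22 (standard error 0.56), and of −0.62 (standard error 0.30) without KIKO replicate 2. *Enpp2* (chromosome 15, 54838901 to 54952892) encodes autotaxin, the enzyme that makes lysophosphatidic acid. Its levels were 2199 and 2240 in WT and 1542, 1396 and 1246 in KIKO, so that KIKO replicate 2 lay with its group. The log2 fold change was −0.67 (standard error 0.40), and −0.68 without KIKO replicate 2, for which edgeR gave an adjusted p = 1 and an adjusted p = 0.51. *Igfbp2* (chromosome 1, 72824503 to 72852474), which binds insulin-like growth factors, had 70.7 and 39.4 in WT and 33.9, 43.3 and 39.6 in KIKO, and the groups overlapped (log2 fold change −0.50, and −0.58 without KIKO replicate 2). The fold change rested on WT replicate 1, without which it was −0.029.

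Among the receptors, *Folr1* (chromosome 7, 101858331 to 101870788) encodes the folate receptor that carries folate into the fluid. It had 26.9 and 32.6 normalized CPM in WT and 5.52, 24.0 and 17.3 in KIKO, with no overlap and a log2 fold change of −0.93 (standard error 0.66), or −1.43 without KIKO replicate 2 and −0.52 without KIKO replicate 1, where it had 7 counts. *Kl* (chromosome 5, 150952607 to 150993817) encodes Klotho, a coreceptor of an endocrine fibroblast growth factor. Its levels were 34.9 and 39.4 in WT and 18.1, 84.2 and 15.2 in KIKO, and it was the only member with a fitted fold change above 0 (0.084, standard error 0.74), which became −1.15 without KIKO replicate 2. *Prlr* (chromosome 15, 10177238 to 10349180), the prolactin receptor, had 36.9 and 71.3 in WT and 24.4, 44.8 and 39.6 in KIKO, and the groups overlapped (log2 fold change −0.58, and −0.79 without KIKO replicate 2). The fold change rested on WT replicate 2, without which it was −0.041.

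*Otx2* (chromosome 14, 48657677 to 48673819) encodes the homeodomain transcription factor that choroid plexus development requires. It had 68.7 and 58.4 normalized CPM in WT and 36.3, 18.5 and 42.6 in KIKO libraries, so that every KIKO library was below every WT library. The log2 fold change was −0.97 (standard error 0.47), and edgeR gave an adjusted p = 1. Without KIKO replicate 2, its lowest library, it was −0.69 (standard error 0.35). With the replicate number of the labels as a block it passed the thresholds at −1.28, where 1.49% of all genes passed in the lower direction. In that model KIKO replicate 3, the highest KIKO library for *Otx2*, had no WT library of its number and did not enter the fold change. Leaving that library out without a block gave −1.21, which did not pass. Its exons overlap those of *Otx2os1* on the opposite strand and of *Gm49154*, and those of *Enpp2* and *Prlr* overlap *Gm26684* and *Gm21973*, so the counting could have assigned some reads differently.

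OTX2 and related homeodomain proteins bind the core letters TAATCC, read GGATTA on the opposite strand. Promoter windows of RefSeq (GRCm38.p6), from 250 bases before to 50 after a transcript start, were at hand for 6 of the 10 members, with 12 windows in all. The letters were found in 1 of these 12, on either strand, compared with 7.06% of the 32851 windows of all genes. That window belongs to *Otx2* itself, and the match begins 211 bases before the start. The stretch is shown in the 5′ to 3′ direction with the matching letters in capitals (chr14:48665303-48665332, minus strand), beside the 82 bases before the RefSeq transcript start of *Slc4a5*, the member that passed the thresholds (chr6:83237293-83237374, plus strand), which hold no match.
Otx2: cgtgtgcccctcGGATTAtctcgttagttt
Slc4a5: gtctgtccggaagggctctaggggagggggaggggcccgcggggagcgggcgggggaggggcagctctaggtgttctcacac
The *Otx2* stretch lies in an exon of other transcripts of the gene. That of *Slc4a5*, rich in G and C (73.2%), lies inside the annotated gene, since other transcripts start farther upstream. A match of these letters is a description of the sequence and not evidence of binding.

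Every KIKO library was below every WT library for 5 of the 10 genes, *Enpp2*, *Folr1*, *Aqp1*, *Slc4a5* and *Otx2*, and for none of the 10 was every KIKO library above. Over all tested genes, the shares were 8.51% below and 8.2% above. Without KIKO replicate 2, 8 of the 10 genes had both KIKO libraries below both WT libraries, all but *Igfbp2* and *Prlr*, compared with 19.2% of the 10373 genes then tested. All 10 fitted fold changes were then below 0, as were 50.9% of all, with a median of −0.83 compared with −0.011 over all genes. The 4 genes that passed the thresholds were *Slc4a5*, *Folr1* (−1.43, standard error 0.56), *Kl* (−1.15, standard error 0.46) and *Clic6* (−1.0, standard error 0.36), where 3.51% of all genes passed in the lower direction. Their adjusted p lay between 0.403 and 0.524 in edgeR's test, so none of them held after correction over all genes, as 0.0482% of the genes did. With sample quality weights, which lowered the weight of that library instead of leaving it out, 4 of the 10 genes passed, beside 2.9% of all genes in the lower direction.

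**Figure D2:**
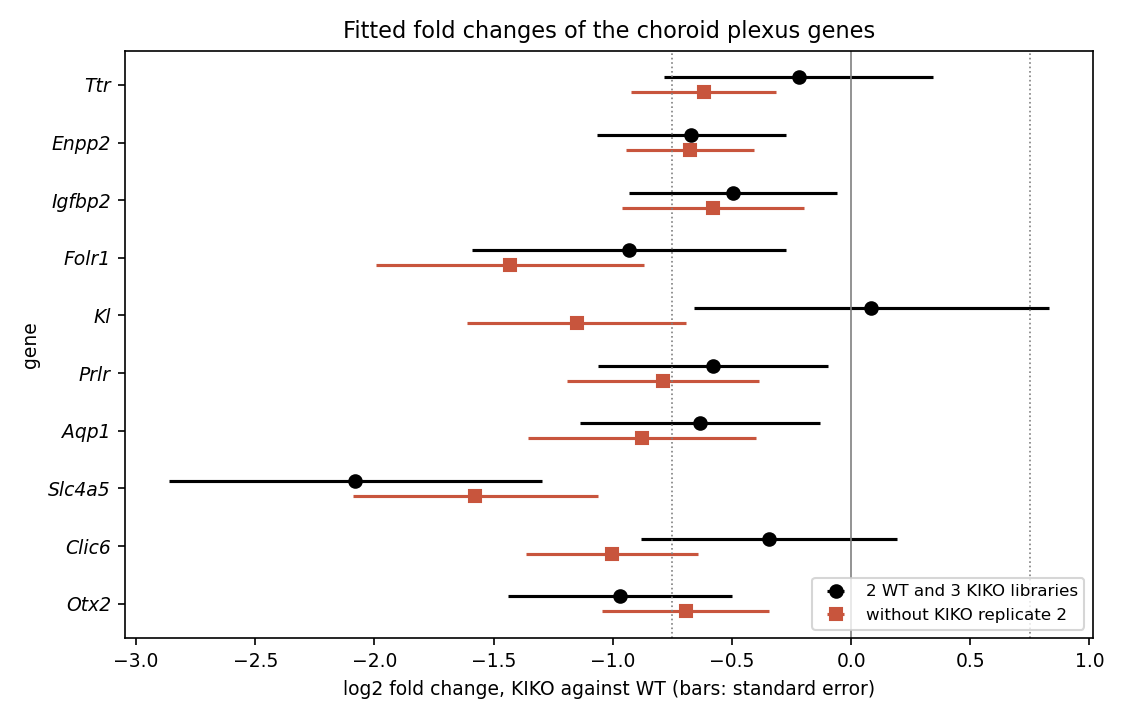
Fitted log2 fold changes of KIKO against WT with standard errors (edgeR), from all 5 libraries (black circles) and without KIKO replicate 2 (red squares), with dotted lines at 0.75 in size. *Kl* moves from 0.084 to −1.15 and *Clic6* from −0.35 to −1.0, while *Enpp2* stays at −0.67 and −0.68.

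The members did not keep a fixed proportion to each other. Per 1000 counts of *Ttr*, *Enpp2* had 209.9 and 194.3 counts in WT and 196.8 and 190.2 in KIKO replicates 1 and 3, a spread of 1.10-fold, but 100.02 in KIKO replicate 2. *Otx2* had 6.56 and 5.07 in WT, 4.63 and 6.51 in KIKO replicates 1 and 3 and 1.33 in KIKO replicate 2. *Slc4a5* had 3.14 and 3.03 in WT and 1.81, 0.111 and 1.24 in KIKO replicates 1, 2 and 3, so that its proportion to *Ttr* was below WT in each KIKO library. *Folr1* had the widest spread without KIKO replicate 2, 4.02-fold, from 0.705 in KIKO replicate 1 to 2.83 in WT replicate 2. *Kl* moved the other way in KIKO replicate 2, with 6.04 counts compared with 2.31 to 3.42 in the other libraries. Relative to the mean of the other 4 libraries, the normalized CPM of the members in KIKO replicate 2 ranged from 0.0686-fold for *Slc4a5* and 0.360-fold for *Otx2* to 1.82-fold for *Clic6* and 3.13-fold for *Kl*. Such departures were common in that library, where 41.3% of all tested genes were more than 1 log2 unit away from the mean of the others.

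**Figure D3:**
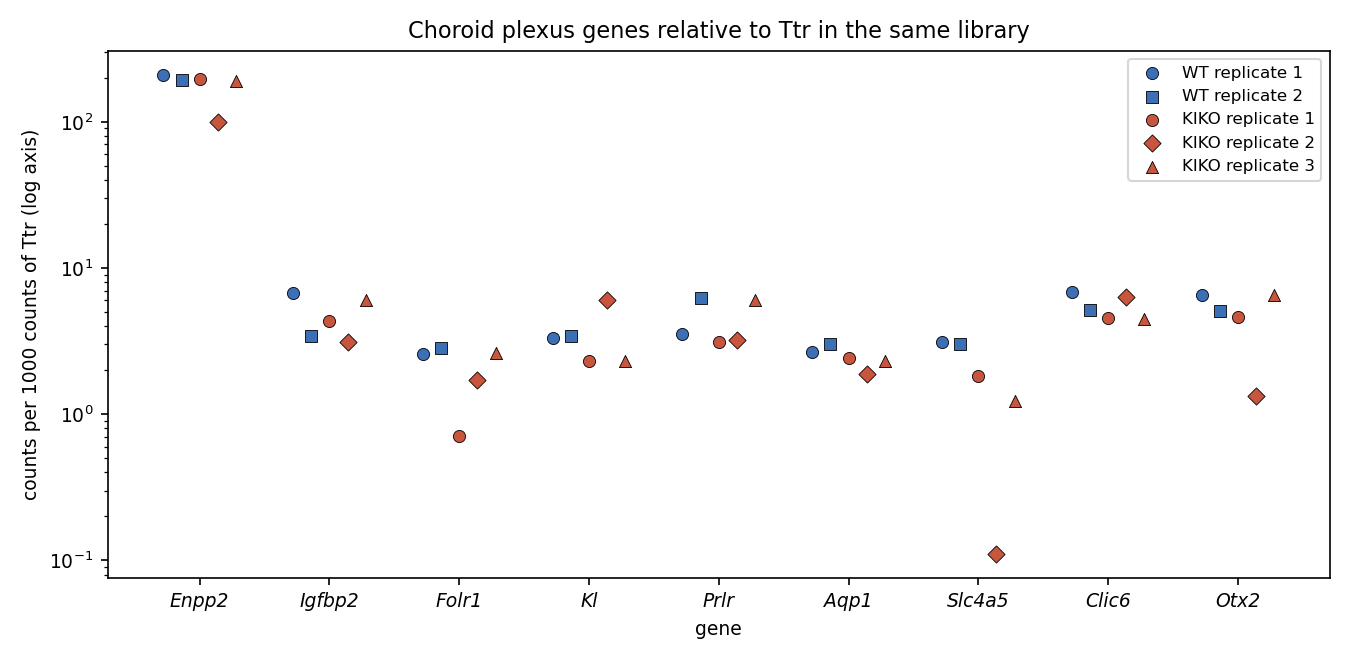
Counts of 9 choroid plexus genes per 1000 counts of *Ttr* in the same library (log axis), with WT in blue and KIKO in red. *Enpp2* lies between 190.2 and 209.9 in 4 libraries and at 100.02 in KIKO replicate 2 (diamond), and *Slc4a5* falls to 0.111 in that library.

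Summed over the 10 genes, the level was 13046 and 14136 normalized CPM in WT and 9565, 15680.3 and 8003 in KIKO replicates 1, 2 and 3. The groups overlapped, and the difference in mean log2 level, KIKO minus WT, was −0.35 (exact permutation test, two-sided, p = 0.4). This sum is mostly *Ttr*. Without *Ttr*, the 9 genes summed to 2570.0 and 2609.9 in WT and 1729, 1727 and 1453 in KIKO, with no overlap and a log2 difference of −0.67 (exact permutation test, two-sided, p = 0.1, the smallest that 2 against 3 libraries can give). The differences without KIKO replicate 2 were −0.64 with *Ttr* and −0.71 without it. Most of the sum without *Ttr* is in turn *Enpp2*. The 8 genes without both summed to 370.6 and 370.1 in WT and 186.9, 331.5 and 207.0 in KIKO, so that KIKO replicate 2 was then nearer to WT, with no overlap.

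Of a wider list of 44 other choroid plexus genes, 37 could be tested. Over all tested genes, 0.487% passed the thresholds in the lower direction, and 1 of the 37 did, with none higher in KIKO. This was *Wfdc2*, which encodes a secreted protein of the whey acidic protein family, with 12 and 17 counts in WT and 1, 2 and 3 counts in KIKO replicates 1, 2 and 3. The ratio over the pooled counts was 0.135, with an exact 95% interval of 0.0460 to 0.332 for counting error only, and edgeR gave an adjusted p = 1 over all genes. The log2 fold change was −2.76 (standard error 0.97). It did not pass with the replicate block (−3.32), with limma on the deposited log2 values (−2.39), or without WT replicate 1 (−2.82), WT replicate 2 (−2.71) or KIKO replicate 1 (−2.41), all of similar size. Of the 37 genes, 24 had a fitted fold change below 0 (48.1% of all genes did), with a median of −0.24. The 44 genes summed to 1597 and 1760.4 in WT and 1599, 1853 and 1526 in KIKO, and the groups overlapped. Without KIKO replicate 2, 26 of 36 were below 0 (50.9% of all genes) with a median of −0.59, and 5 passed, all lower, where 3.51% of all genes passed in that direction, *Wfdc2*, *Car12* and *Slc4a2* of bicarbonate handling, the membrane protein gene *Tmem72*, and *Msx1*, a homeobox gene.

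Within the wider list, 9 of the 37 genes tested had every KIKO library below every WT library, and 1 had every one above. The shares over all genes were 8.51% and 8.2%. Without KIKO replicate 2 these were 17 and 1 of 36, with 19.2% of all genes below. The genes with the highest mean level of each role showed both directions. The sodium pump subunit *Atp1b1*, which neurons also express, had 311.8 and 293.5 normalized CPM in WT and 465.3, 368.6 and 457.7 in KIKO, without overlap, and did not pass (log2 fold change 0.51, standard error 0.36, and 0.60 without KIKO replicate 2). The thyroid hormone transporter *Slco1c1*, also of brain endothelium, had 60.8 and 75.1 in WT and 55.2, 163.0 and 43.6 in KIKO. *1500015O10Rik*, which encodes the secreted peptide precursor augurin, had 100.6 and 97.8 in WT and 66.2, 151.5 and 63.9 in KIKO, so that KIKO replicate 2 was the highest library and the other KIKO libraries the lowest, as for *Ttr*. The claudin gene *Cldn2*, of tight junctions, lay between 10.1 and 22.8 in all libraries. *Tmem72* had 44.8 and 34.9 in WT and 23.7, 20.9 and 9.13 in KIKO, and *Msx1* 32.9 and 28.1 in WT and 17.4, 16.2 and 11.2 in KIKO, both without overlap. The keratin gene *Krt8* and the claudin gene *Cldn3* had at most 4 and 3 counts in a library.

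Markers of other cells were present in the same libraries. The 12 microglial markers summed to 5474 and 6890 normalized CPM in WT and 4794, 12194.5 and 5523 in KIKO replicates 1, 2 and 3, with *Csf1r* the most abundant. Of these 12, 3 had a fitted fold change below 0 (median 0.081). When KIKO replicate 2 was left out, 11 of the 12 were below 0 (median −0.35, with 50.9% of all genes below 0), 6 had both KIKO libraries below both WT libraries (19.2% of all genes), and 0 passed the thresholds. Their part in the result was not tested. The 6 oligodendrocyte markers, led by *Mbp*, summed to 1943 and 6559 in WT and 1834, 9724 and 3133 in KIKO. Of the 6, 5 had a fitted fold change above 0, and 0 passed the thresholds. The exception, *Mog*, a myelin protein gene, had 35.9 and 56.1 in WT and 28.4, 32.5 and 22.3 in KIKO, without overlap, as *Enpp2* had, whereas *Mag* was lowest in KIKO replicate 2. The part of oligodendrocytes in the level of *Enpp2* was not tested. The 6 markers of granule neurons, led by *Zic1*, were between 1234 and 1756, and the 5 border macrophage markers between 130.9 and 280.5. Among the latter *Pf4* had the highest mean through KIKO replicate 2 (160.7), and *Lyve1* was above it in WT replicate 2 and in KIKO replicates 1 and 3. Again leaving out KIKO replicate 2, 4 of the 6 oligodendrocyte, 3 of the 6 granule neuron and 3 of the 4 tested border macrophage markers had a fold change below 0.

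Ependymal cells border the choroid plexus and share *Foxj1* with it, which drives the genes of motile cilia. *Foxj1*, the ependymal marker with the highest mean, though below *Rsph1* in WT replicate 2 and KIKO replicates 1 and 3, had 16.9 and 15.2 normalized CPM in WT and 10.3, 8.50 and 6.09 in KIKO, without overlap (log2 fold change −0.94, standard error 0.68, and −0.95 without KIKO replicate 2), and did not pass. The 7 ependymal markers summed to 61.8 and 78.9 in WT and 59.9, 26.3 and 47.7 in KIKO libraries, where the highest KIKO value was close to the lowest WT value. *Foxj1* was the only one of the 6 tested without overlap. Over all tested genes, 8.51% had every KIKO library below every WT library and 8.2% above. *Dynlrb2*, *Rsph1* and *Cfap126* had no count in KIKO replicate 2. The median fold change of the list was −0.66, and −0.14 without KIKO replicate 2, when *Dynlrb2* (−0.020) and *Rarres2* (0.0050) were near 0. The part of these cells in the level of the choroid plexus genes was not tested.

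In the lists of the remaining cell types, 1 gene passed the thresholds, the astrocyte gene *Gfap*, higher in KIKO (log2 fold change 1.32, standard error 0.55). The markers tested were 5 of Purkinje neurons, 5 of astrocytes, 6 endothelial, 4 mural, 4 of fibroblasts and 6 of blood cells. Over all tested genes, 1.2% passed in either direction. Without KIKO replicate 2, when 6.45% of all genes passed in either direction, 6 marker genes did. *Gfap* (1.17), the Purkinje neuron genes *Calb1* (1.37) and *Car8* (0.96) and the neutrophil gene *S100a9* (2.25) were then higher in KIKO, and the myelin genes *Mbp* (−1.11) and *Mog* (−0.86) lower. Their part in the level of the choroid plexus genes was not tested. The 5 Purkinje neuron markers, led by *Itpr1*, summed to 386.5 and 266.2 in WT and 593.1, 295.2 and 525.6 in KIKO. The fitted fold change was above 0 for all 5 (median 0.59) and for all 5 tested astrocyte markers (median 0.36). It was below 0 for 2 of 6 endothelial, 1 of 4 mural, 2 of 4 fibroblast and 2 of 6 blood markers, and for 48.1% of all genes. Without KIKO replicate 2, 4 of the 5 Purkinje neuron markers had both KIKO libraries above both WT libraries, as 2032 of 10373 genes did. Astrocyte markers, led by *Slc1a3*, ranged from 262.0 to 490.7, endothelial markers, led by *Flt1*, from 397.4 to 851.0, mural markers, led by *Rgs5*, from 185.3 to 344.6, fibroblast markers, led by *Dcn*, from 90.6 to 115.7, and blood cell markers, led by *Hbb-bs*, from 919.4 to 2721. Of these lists, fibroblast markers alone did not overlap between WT and KIKO, and their lowest KIKO value of 96.2 was close to the highest WT value of 94.8.

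**Figure D4:**
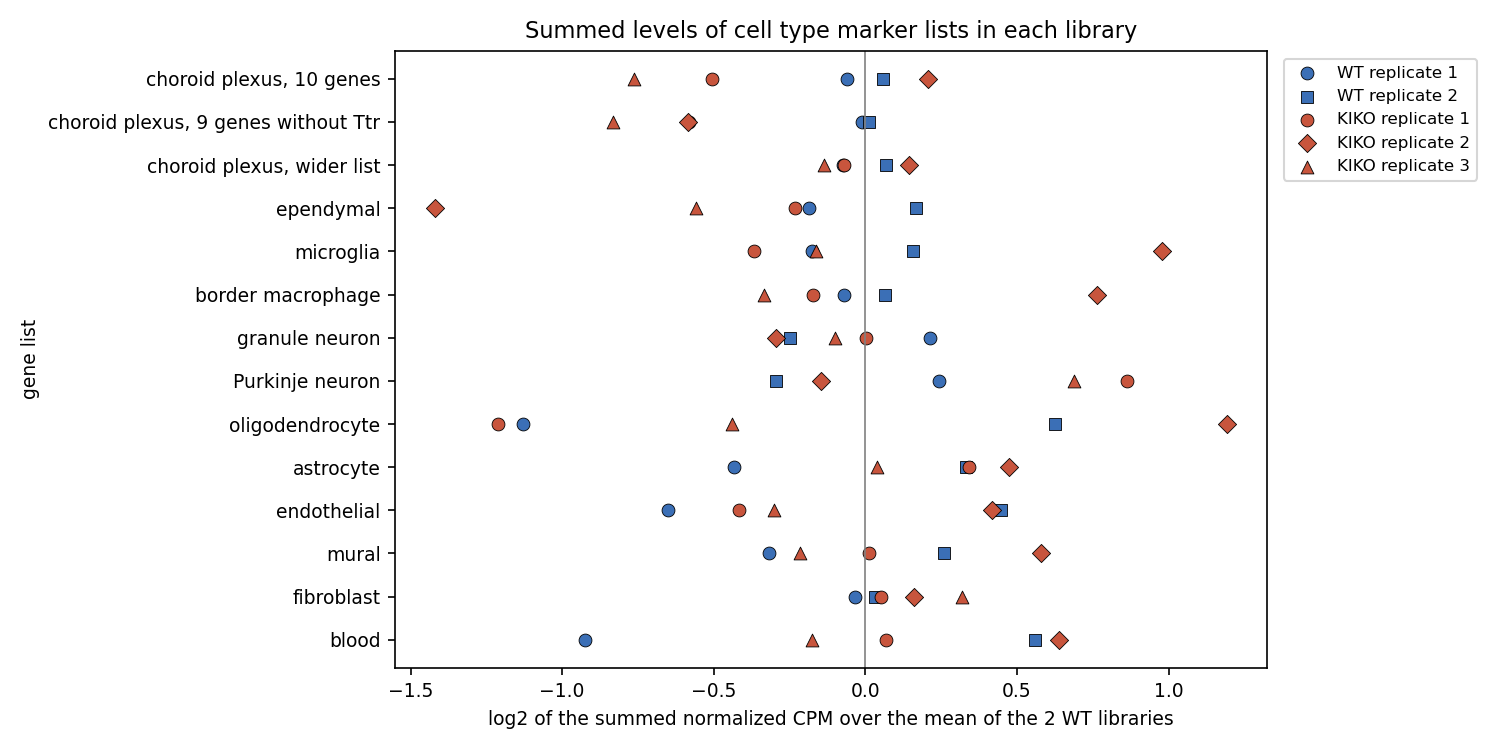
Log2 of the summed normalized CPM of each marker list over the mean of the 2 WT libraries, with one point per library (WT blue, KIKO red). The 9 choroid plexus genes without *Ttr*, mostly *Enpp2*, lie below both WT libraries in each KIKO library, while microglial and oligodendrocyte markers are highest in KIKO replicate 2 (12194.5 and 9724 normalized CPM).

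The genes whose pattern over the 5 libraries was closest to that of *Ttr* were found among 3994 genes with a mean of at least 50 normalized CPM and a count in every library, by the root mean square difference of the centred log2 levels. They were *Prr13* (0.038 log2 units), *Klf2* (0.052), *Psmd8* (0.072), *Arpc5* (0.076) and *Bcl2l11* (0.076). *Klf2*, a transcription factor gene of endothelium and leukocytes, had 459.2 and 475.6 normalized CPM in WT and 341.5, 637.5 and 274.0 in KIKO replicates 1, 2 and 3. None of the 5 is among the choroid plexus genes named above or in the wider list. Of the other members, however, only *Enpp2* and *Clic6* reached the mean level asked for, and most of the wider list did not. The search could therefore hardly return a choroid plexus gene, and it does not show whether *Ttr* moved with its tissue. Close matches over 5 libraries, picked from 3994 genes, are a description only.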

How the data were processed

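The authors used Trimmomatic to trim the reads, HISAT2 to place them on mm10, and featureCounts for the counts of each gene. The annotation, strand setting and handling of reads with several positions were not given in the sources used here. They deposited raw counts per gene, and log2 values of counts normalized with DESeq2. For library preparation the paper names a digital mRNA service with single-end reads, and the labels a stranded Illumina kit. The tables also hold 2 columns of per-sample values that match no sample label, which were not used.

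Gene symbols came from GENCODE M21 (GRCm38) for 30934 of 31053 identifiers. The main test was that of edgeR 4.0.16 under R 4.3.3 (filterByExpr at a count of 10 and a total of 15, TMM, glmQLFit and glmQLFTest, two-sided, Benjamini-Hochberg adjustment over all 10889 tested genes). Standard errors are the fold change divided by the square root of the F statistic. The alternatives were DESeq2 1.42.0, factors by RLE, no factors beyond library size, filters that were looser or stricter, limma 3.58.1 with trend on the deposited log2 values, sample quality weights, the replicate number as a block, and leaving out each library.

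The members, gene lists and tests were chosen with earlier results of these data known. Genes named were the 10 members, wider list genes past the thresholds and the most abundant of each role, the most abundant gene reported of each other list, and the 5 patterns closest to *Ttr*. Some items that this rule also takes in are not reported here. Other genes of these lists, such as *Krt8*, *Cldn3*, *Mog*, *Steap1*, *Slc4a10* and *Gfap*, were named after their values were seen.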

Additional observations from a re-analysis of the deposited data

How the results depend on the processing

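The fitted fold change was below 0 in every alternative that could be computed for each member except *Kl*, which had 0.084 in the model reported, −0.35 with limma on the deposited log2 values and −1.02 with sample quality weights, and ranged from −1.15 to 0.46 when one library was left out, with −0.024 without WT replicate 1. Leaving out one library also gave −0.62 to −0.016 for *Ttr*, −1.0 to −0.074 for *Clic6*, −0.88 to −0.029 for *Igfbp2*, −0.98 to −0.041 for *Prlr* and −1.43 to −0.52 for *Folr1*. Members past the thresholds numbered 1 in the model reported, 0 with at least 10 counts in every library (where *Slc4a5* was no longer tested), 2 with the replicate block, 4 with sample quality weights and 0 to 4 when one library was left out. Genes of the wider list past the thresholds numbered 1, and 2 with all genes of at least 1 count, 0 with limma, 0 with the replicate block, 5 with sample quality weights and 1 to 5 when one library was left out, among them *Steap1* without WT replicate 2 (2.65) and *Slc4a10* without KIKO replicate 3, both higher in KIKO. Over all genes the count was 131, and 383 with all genes of at least 1 count, 271 with the replicate block, 519 with sample quality weights and 56 to 669 when one library was left out. Genes with an adjusted p under 0.05 numbered 1 with all genes of at least 1 count and 0 to 5 when one library was left out. In each case the highest count of the left-out libraries was that without KIKO replicate 2, and where a WT library was left out, the remaining one was assumed to vary like the KIKO libraries. The summed level of the members differed by −0.35 on the log2 scale, by −0.83 with each gene given equal weight, and by −0.64 to −0.15 when one library was left out. The difference without *Ttr* and KIKO replicate 2 (−0.71) was added after the data were seen. Members with every KIKO library below every WT library numbered 5, and 8 without KIKO replicate 2, a comparison added after the data were seen. The quality weight of KIKO replicate 2 was 0.163, compared with 1.19 to 2.28 for the other libraries. The cause was not tested. Of the genes past the thresholds, 78 of 131 were higher in KIKO in the model reported, 94 of 137 with library size alone and 96 of 136 with DESeq2, but 109 of 271 with the replicate block, 203 of 519 with sample quality weights and 305 of 669 without KIKO replicate 2.

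The replicate numbers pair the libraries by label only. Deviations from the group means of same-numbered libraries correlated across genes with r of 0.170 and 0.225, and those of WT replicate 1 and KIKO replicate 3 with 0.205. Deviations within a group cancel, and those of the WT libraries are exact opposites. The values are therefore tied to each other and cannot decide whether the numbers pair the mice. As nothing but the number does so, the numbers were not taken to pair them. The block moved *Otx2* past the thresholds (−1.28) and *Wfdc2* out of them (−3.32, adjusted p = 0.989 in edgeR's test).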

Other observations

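The departure of KIKO replicate 2 from the other 4 libraries was weakly related to gene properties across the 10889 tested genes, as a description over genes that share the same libraries. Spearman's rho was 0.102 with the GC content of the longest transcript, −0.216 with exonic length and −0.145 with the mean level in the other libraries. KIKO replicate 2 also detected the fewest genes, 12724 compared with 13729 to 14737 in the other libraries.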
